A study of Mus musculus with 30 samples.

Results

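The 84 genes described here encode nuclear subunits of the mitochondrial respiratory chain and of ATP synthase, measured in myeloid cells sorted from the brain after experimental stroke. They were chosen by gene symbol alone, as array rows annotated to Nduf subunits (complex I, 37 genes), Sdha to Sdhd (complex II, 4 genes), Uqcr genes (complex III, 8 genes), Cox4 to Cox8 genes (complex IV, 18 genes) and Atp5 genes (complex V, 17 genes). Each gene had 1 row, out of 22103 rows on the array, of which 19508 carry a single gene symbol.

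Complexes I to IV pass electrons from NADH and succinate to oxygen. Complexes I, III and IV also pump protons across the inner mitochondrial membrane, and complex V uses the proton gradient to make ATP. Most subunits are encoded in the nucleus, and a small set that is made inside the mitochondrion was not measured by these rows. Neutrophils are known to hold few mitochondria and to draw most of their ATP from glycolysis, whereas macrophages and microglia keep an active respiratory chain. Several complex IV subunits exist as a ubiquitous isoform and an isoform restricted to muscle, lung or testis.

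The groups were TREM1 knockout (KO) neutrophils (5 arrays), wild-type (WT) neutrophils (4), KO macrophages (6), WT macrophages (3), KO microglia (6) and WT microglia (6). TREM1 is a receptor of myeloid cells that amplifies inflammatory signals. All mice were C57BL/6 males of 8 to 10 weeks, and all groups share a 45 min occlusion of the middle cerebral artery followed by 48 h of reperfusion, so no group comes from uninjured brain. Cells of the ischemic hemisphere were sorted as CD45hi CD11b+ Ly6G+ (neutrophils), CD45hi CD11b+ Ly6G- (macrophages) and CD45lo CD11b+ (microglia, with Ly6G+ also stated for this gate). The labels call the arrays of a group biological replicates, and they give neither the cell type in which Trem1 was deleted nor the number of animals behind an array. Values below are log2 of the deposited intensities, so a difference of 1 is a doubling, and tests compare groups within a gene. Levels of different genes are set side by side only to mark genes as bright or dim. They are pooled only as a mean or median over a set of genes. In RNA of a sorted population, fewer cells carrying a transcript and less of the transcript per cell cannot be told apart.

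The Trem1 row itself averaged 15.98 ± 0.51 in KO neutrophils and 17.20 ± 0.29 in WT neutrophils (SD, n = 5 and 4), a difference of -1.22 (limma, adjusted p = 0.0361). It averaged 13.47 ± 0.53 in KO macrophages and 13.96 ± 0.32 in WT macrophages, a difference of -0.49 (SE 0.44, limma adjusted p = 0.998). In microglia it averaged 8.35 ± 0.68 in KO and 9.60 ± 1.02 in WT, a difference of -1.25 (SE 0.36, limma adjusted p = 0.9999). Neither passed the test, although the microglia difference was as large as that in neutrophils. In the microglia comparison 0% of all rows were called. Where the probes of that row lie relative to the deleted part is not given in the sources used here, so the row is no full check of the genotype. Of the defining genes, S100a8 averaged 17.57 in KO neutrophils and 18.02 in WT neutrophils, Ccr2 15.28 in KO macrophages and 15.32 in WT macrophages, and P2ry12 15.76 in KO microglia and 15.78 in WT microglia. Other neutrophil genes lay further apart in neutrophils: S100a9 (17.00 in KO, 17.64 in WT), Retnlg (14.45 in KO, 16.43 in WT) and Mmp8 (13.66 in KO, 15.75 in WT). P2ry12 was also bright in neutrophils (12.69 in KO, 13.66 in WT), and Adgre1, a macrophage gene, averaged 12.51 in KO macrophages and 12.31 in WT macrophages and was higher in microglia (12.95 in KO, 12.88 in WT). In neutrophils the means of Adgre1 (11.87 in KO, 10.15 in WT), Ccr2 (10.67 in KO, 8.59 in WT) and Lyz2 (16.71 in KO, 15.28 in WT) were higher in KO. That of Ly6c2 was lower in KO (11.59 in KO, 12.28 in WT). The WT neutrophil arrays resembled each other less (mean correlation with their group 0.933 to 0.962) than arrays of the other groups (at least 0.974), and WT neutrophil 4 stood furthest apart, with a limma array weight of 0.205.

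Promoters are shown for the member of complexes I, III, IV and V with the greatest rise in KO relative to WT neutrophils among members that passed the test, since those differences lead the results below. The stretches run from 250 bases before to 50 bases after the start of the gene, from RefSeq (GRCm38.p6), at chr3:32736813-32737112 on the plus strand for Ndufb5, chr9:108936398-108936697 on the plus strand for Uqcrc1, chr9:57520982-57521281 on the plus strand for Cox5a and chr16:91931581-91931880 on the minus strand for Atp5o. Capitals mark matches, on either strand, to TGCGCA, the core of the motif of NRF1. They also mark matches to CGGAAG, the core of the motif of ETS factors such as GABP, which is read in reverse complement where it lies on the other strand. NRF1 and GABP are regulators known to act on promoters of respiratory chain genes.
Ndufb5 promoter: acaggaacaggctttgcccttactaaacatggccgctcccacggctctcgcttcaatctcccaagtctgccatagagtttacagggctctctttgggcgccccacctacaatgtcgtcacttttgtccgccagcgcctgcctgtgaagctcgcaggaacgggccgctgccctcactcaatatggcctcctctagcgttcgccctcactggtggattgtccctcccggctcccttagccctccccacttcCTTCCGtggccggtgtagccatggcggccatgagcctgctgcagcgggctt
Uqcrc1 promoter: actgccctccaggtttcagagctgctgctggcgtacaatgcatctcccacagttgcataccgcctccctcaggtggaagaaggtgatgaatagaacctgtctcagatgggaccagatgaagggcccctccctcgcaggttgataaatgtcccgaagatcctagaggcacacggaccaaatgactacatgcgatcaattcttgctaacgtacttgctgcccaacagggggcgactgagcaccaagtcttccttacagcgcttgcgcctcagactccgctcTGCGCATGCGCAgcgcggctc
Cox5a promoter: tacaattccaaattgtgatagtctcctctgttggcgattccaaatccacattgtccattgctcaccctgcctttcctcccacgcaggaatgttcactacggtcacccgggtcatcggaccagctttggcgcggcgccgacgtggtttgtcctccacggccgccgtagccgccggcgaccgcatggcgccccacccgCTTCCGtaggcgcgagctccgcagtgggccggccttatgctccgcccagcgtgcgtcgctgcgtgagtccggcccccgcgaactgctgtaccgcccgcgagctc
Atp5o promoter: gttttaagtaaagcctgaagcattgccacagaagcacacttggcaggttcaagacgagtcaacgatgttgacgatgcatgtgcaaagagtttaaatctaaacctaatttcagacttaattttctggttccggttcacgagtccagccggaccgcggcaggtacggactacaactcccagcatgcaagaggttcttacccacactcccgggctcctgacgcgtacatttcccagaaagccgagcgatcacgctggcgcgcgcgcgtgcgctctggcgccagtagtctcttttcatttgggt

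Ndufb5 holds 1 ETS core at the start itself, Cox5a holds 1 that begins 54 bases before its start, Uqcrc1 holds 2 NRF1 cores end to end that begin 29 and 35 bases after its start, and the Atp5o stretch holds neither. Of the 84 members, 69 matched the RefSeq promoter table, with 74 promoters. The NRF1 core was present in 25.7% of these (19 promoters), against 9.74% of the 21263 promoters of protein-coding genes and 7.76% of all 32851. The ETS core was present in 40.5% (30 promoters), against 21.1% of protein-coding and 16.9% of all promoters, at a median GC content of 57.3% in members, 56.3% in protein-coding genes and 52.7% in all genes. Among members that rose in KO neutrophils, 23.5% of promoters held the NRF1 core and 26.5% the ETS core, and among the other members 27.5% and 52.5%. A match is a description of letters, and neither share was tested.

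Does loss of TREM1 change expression of the respiratory chain in neutrophils? In KO neutrophils 38 of the 84 members rose and 2 fell relative to WT neutrophils, and 44 did not pass (limma on all 22103 rows, Benjamini-Hochberg adjusted p under 0.05). That is 45.2% of the members higher and 2.38% lower, whereas 10.7% of all rows were called higher and 9.14% lower. The median difference was 0.58 over the members and -0.13 over all rows. In 27 members every KO neutrophil array lay above every WT neutrophil array and in 1 every KO array lay below, against 5.52% and 5.86% of all rows. At an unadjusted p under 0.05, 58 members differed, as did 7635 of all rows.

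The members were not alone in rising. Among 1960 other rows whose level was at least 11 in all macrophage and microglia arrays and whose WT means in these cells were less than 1 apart, 752 rose (38.4%) and 80 fell (4.08%) in KO neutrophils, with a median difference of 0.43. The median level of these broadly expressed rows was 12.83 to 13.18 in KO neutrophils and 12.39 to 12.89 in WT neutrophils, against 13.24 to 13.47 in all other arrays. Of these rows, 5 to 24 per KO neutrophil array and 20, 88, 108 and 200 in WT neutrophils 1 to 4 lay more than 3 below their level in the other cells. With that median level as a covariate, which itself differed between the groups, 1 member was called (Ndufc2, higher) and the median over the members was 0.06. The number of members called was 19 (all higher) when the fit held neutrophil arrays alone and 17 (all higher) without WT neutrophils 3 and 4, a setting chosen after seeing the data. Of the 19, 13 were in complex I, 1 in complex II, 1 in complex III, 2 in complex IV and 2 in complex V. The part of RNA quality or amount in these values was not tested.

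**Figure D1:**
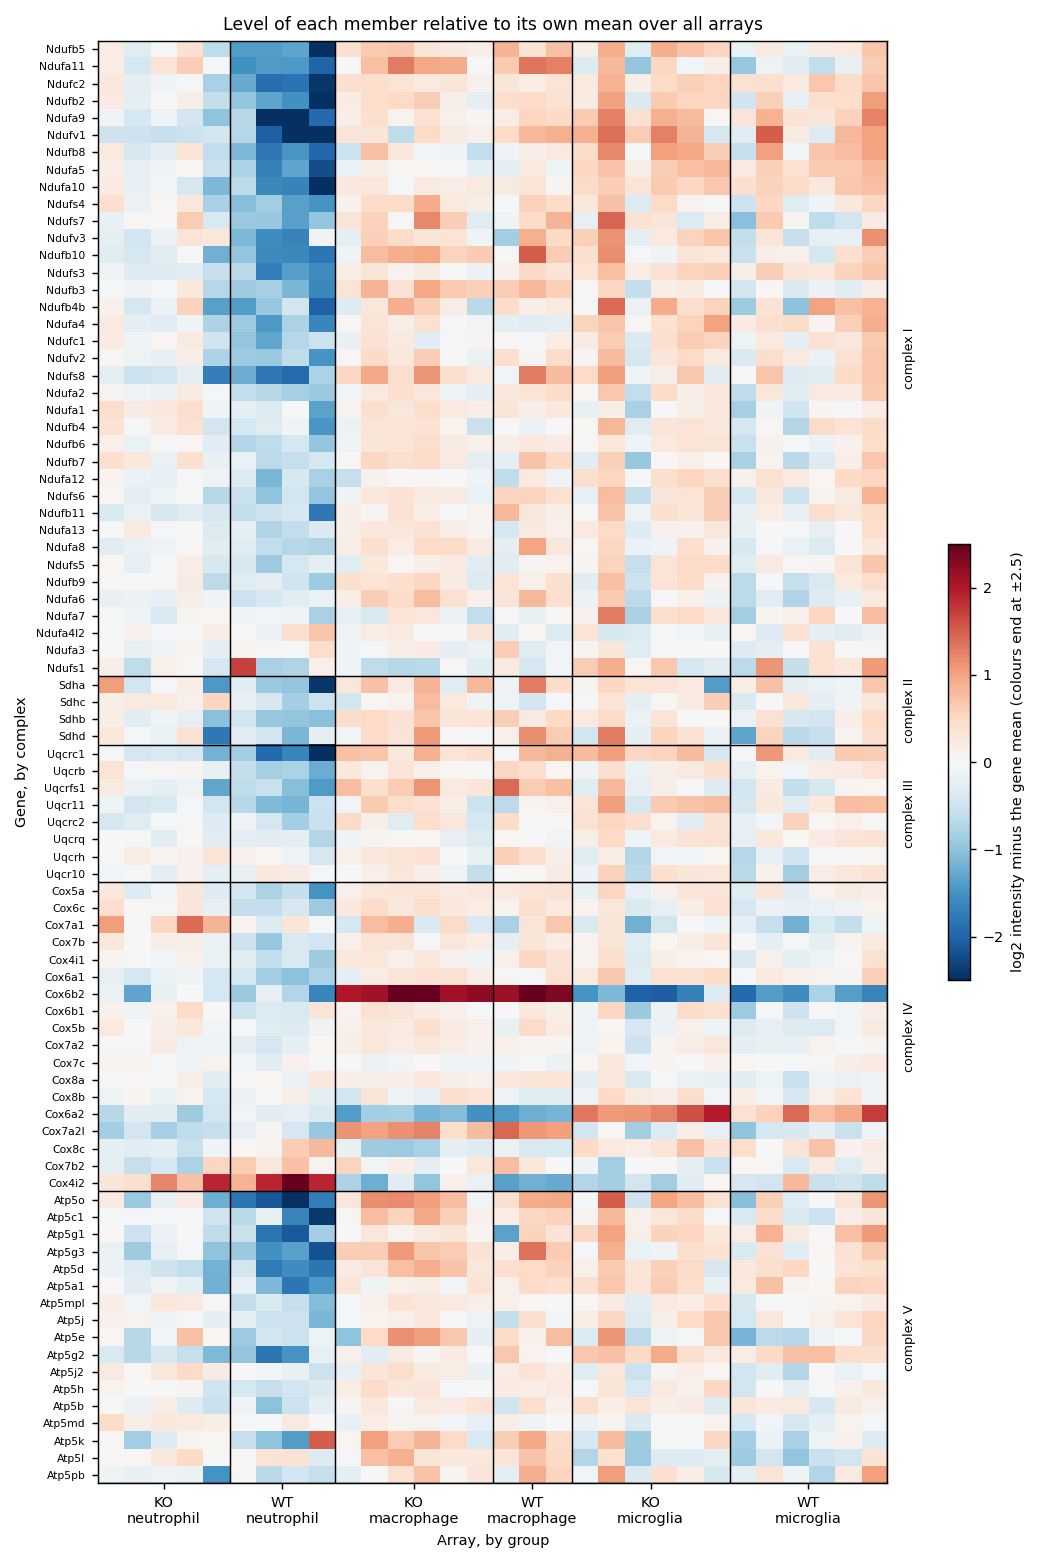
Each row is a member, grouped by complex and ordered within it by the difference between KO and WT neutrophils, and each column is 1 of the 30 arrays, by group. Colour gives log2 intensity minus the mean of that gene over all arrays, from -2.5 (blue) to 2.5 (red). Most complex I and V members are lowest in the 4 WT neutrophil arrays. Single complex IV genes stand out in macrophages (Cox6b2, Cox7a2l), microglia (Cox6a2) and neutrophils (Cox4i2).

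Complex I held most of the members that rose. Of its 37 members 23 rose, none fell, and the median difference was 0.81, with 30 past an unadjusted p of 0.05. The mean level of its members per array was 12.63 ± 0.24 in KO neutrophils and 11.78 ± 0.26 in WT neutrophils (SD, n = 5 and 4), and the lowest KO array (12.26) lay above the highest WT array (12.12).

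Ndufb5, a supernumerary subunit of the membrane arm, had levels of 12.94, 12.45, 12.72, 13.14 and 12.11 in KO neutrophils, against 11.36, 11.36, 11.44 and 9.0 in WT neutrophils. The groups did not overlap, and WT neutrophil 4 lay far below the other WT arrays. The difference was 1.88 (SE 0.34, 3.68-fold, limma adjusted p = 0.000314), and without WT neutrophil 4 it was 1.28 (adjusted p = 0.00073).

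Ndufc2, another membrane arm subunit, had 15.61, 15.10, 15.24, 15.28 and 14.52 in KO neutrophils, against 14.08, 13.46, 13.50 and 12.90 in WT neutrophils. Every KO array lay above every WT array. The difference was 1.67 (SE 0.19, adjusted p = 2.34e-06), and it is the member that also passed with the broadly expressed level as a covariate.

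Ndufa11, a membrane arm subunit, had 10.58, 9.96, 10.75, 11.01 and 10.36 in KO neutrophils, against 8.89, 8.99, 8.97 and 8.39 in WT neutrophils, again without overlap. The difference was 1.72 (SE 0.32, adjusted p = 0.000394).

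Of the 6 core subunits measured in the arm outside the membrane, 4 rose. Ndufv1, which binds NADH and the flavin, had levels between 10.12 and 10.25 in all 5 KO neutrophil arrays, against 9.98, 8.65, 8.00 and 8.22 in WT neutrophils. All KO arrays lay above WT neutrophil 1, the highest WT array, by a small margin and above the other WT arrays by a wide one, and the difference was 1.47 (SE 0.37, adjusted p = 0.00561). Ndufs3, of the hydrophilic arm, differed by 1.01 (SE 0.17, adjusted p = 0.000139), with KO arrays from 14.85 to 15.32 and WT arrays from 13.72 to 14.75.

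The iron-sulfur subunits Ndufs7 and Ndufv2 rose by 1.08 (SE 0.33, adjusted p = 0.0218) and 0.81 (SE 0.23, adjusted p = 0.0155), and Ndufv2 did not pass without WT neutrophil 4 (0.64, adjusted p = 0.0809). Ndufs7 did not pass without WT neutrophil 3 or without KO neutrophil 4, where its highest adjusted p was 0.0687. Ndufs8, which also carries iron-sulfur clusters, differed by 0.79 without passing (SE 0.32, adjusted p = 0.0825). Ndufs1, the largest iron-sulfur subunit, differed by -0.23 (SE 0.40, adjusted p = 0.721). Its level in WT neutrophil 1 was 9.02, against 6.49 to 7.43 in the other WT neutrophils and 6.66 to 7.45 in KO neutrophils.

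Ndufa4, whose product was named for complex I and is now counted as a complex IV subunit, rose by 0.96 (SE 0.20, adjusted p = 0.00142). Its paralog Ndufa4l2, a gene known to respond to hypoxia, stayed near 4 in all groups, with group means up to 4.20 and below the median of all row means (6.69), and it differed by -0.19 (SE 0.17, adjusted p = 0.436).

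**Figure D2:**
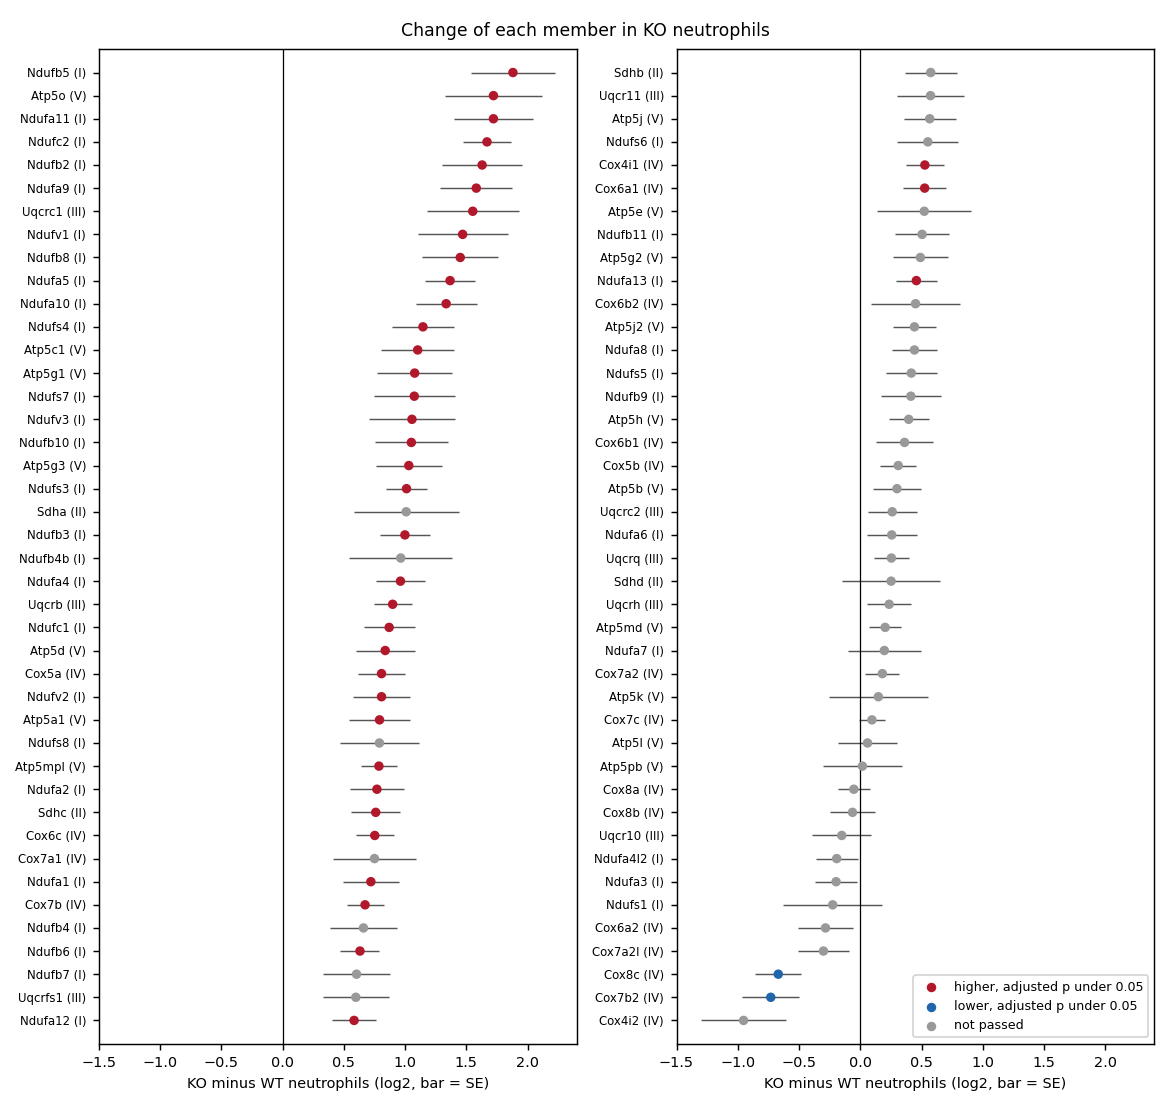
Points give the difference between KO and WT neutrophils on the log2 scale for each of the 84 members, from the highest to the lowest, with bars of 1 SE of the limma fit and the complex in parentheses. The 38 members in red rose, the 2 in blue (Cox7b2, Cox8c) fell, and the grey ones did not pass; the upper end is held mostly by complex I and the lower end by complex IV isoforms.

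In complex II, which oxidises succinate, 1 of 4 members rose and the median difference was 0.67. Sdhc, a membrane anchor, had 8.58, 8.66, 8.67, 8.56 and 8.96 in KO neutrophils, against 8.22, 8.03, 7.57 and 7.89 in WT neutrophils. The groups did not overlap, and the difference was 0.76 (SE 0.20, adjusted p = 0.00821). Sdha, the flavoprotein, differed by 1.01 (SE 0.43, adjusted p = 0.0925), and its arrays overlapped, with 7.51 to 9.99 in KO neutrophils and 6.52 to 8.67 in WT neutrophils. The iron-sulfur subunit Sdhb differed by 0.57 (SE 0.21, adjusted p = 0.0528) and the anchor Sdhd by 0.25 (SE 0.40, adjusted p = 0.686).

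In complex III, which passes electrons from ubiquinol to cytochrome c, 2 of 8 members rose, none fell, and the median difference was 0.42. Uqcrc1, a core subunit, had 11.91, 11.51, 11.54, 11.51 and 10.74 in KO neutrophils, against 11.06, 9.99, 10.30 and 8.22 in WT neutrophils. WT neutrophil 1 lay above KO neutrophil 5, so the groups overlapped, and WT neutrophil 4 was the lowest array. The difference was 1.55 (SE 0.37, adjusted p = 0.00434), and without WT neutrophil 4 it was 0.99 (adjusted p = 0.0337). With the broadly expressed level as a covariate its sign turned, to -0.15 (adjusted p = 0.893). The other riser was Uqcrb, a small subunit near the quinone site, named here after its values were seen, with 15.93 to 16.45 in KO neutrophils and 14.89 to 15.51 in WT neutrophils. The other core subunit, Uqcrc2, differed by 0.26 (SE 0.20, adjusted p = 0.364) and the Rieske iron-sulfur protein Uqcrfs1 by 0.60 (SE 0.27, adjusted p = 0.114).

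Complex IV, cytochrome c oxidase, was mixed. Of its 18 members 5 rose and 2 fell, the median difference was 0.24, and 10 passed an unadjusted p of 0.05. Mean levels per array were 12.06 ± 0.09 in KO neutrophils and 11.92 ± 0.09 in WT neutrophils (SD, n = 5 and 4), and the ranges overlapped (11.91 to 12.13 in KO, 11.84 to 12.06 in WT).

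The risers were subunits made in all tissues. Cox5a, on the matrix side of the enzyme, had 14.68, 14.11, 14.35, 14.72 and 14.09 in KO neutrophils, against 13.95, 13.63, 13.83 and 12.92 in WT neutrophils, without overlap. The difference was 0.81 (SE 0.19, adjusted p = 0.0034). Cox6c rose by 0.75 (SE 0.15, adjusted p = 0.000983) and Cox7b by 0.67 (SE 0.15, adjusted p = 0.00248). Cox4i1, the ubiquitous subunit 4, rose by 0.53 (SE 0.16, adjusted p = 0.0183) and Cox6a1, the ubiquitous subunit 6a, by 0.53 (SE 0.17, adjusted p = 0.0315). Cox4i1 did not pass without WT neutrophil 4 (adjusted p = 0.0962), and Cox6a1 did not pass on leaving out any of 6 single arrays (WT neutrophils 2, 3 and 4 and KO neutrophils 1, 3 and 4, adjusted p up to 0.106). Cox5b (0.31, adjusted p = 0.13), Cox6b1 (0.36, adjusted p = 0.281), Cox7a2 (0.18, adjusted p = 0.367) and Cox8a (-0.05, adjusted p = 0.796), also ubiquitous forms, did not pass.

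Both members that fell are isoforms known from testis. Neither was called when the fit held neutrophil arrays alone. Cox8c had 7.14, 7.13, 7.15, 6.83 and 7.29 in KO neutrophils, against 7.43, 7.47, 8.02 and 8.20 in WT neutrophils, and all KO arrays lay below all WT arrays. The difference was -0.67 (SE 0.19, adjusted p = 0.012), and without WT neutrophil 4 it was -0.53 (adjusted p = 0.0694). Cox7b2 differed by -0.73 (SE 0.23, adjusted p = 0.0261), but its group means were under the median row level in all groups, the neutrophil groups overlapped (5.09 to 6.41 in KO, 5.96 to 6.62 in WT), and it did not pass after median centring, after quantile normalization or on leaving out any of 5 single arrays (adjusted p up to 0.0888). Cox4i2, the oxygen-responsive form of subunit 4 known from lung, had 8.24, 8.34, 9.17, 8.68 and 9.85 in KO neutrophils, against 8.81, 9.84, 10.73 and 9.84 in WT neutrophils. The groups overlapped, and the difference of -0.95 lay at the threshold (SE 0.35, adjusted p = 0.0507); over the other settings its adjusted p ran from 0.00955 with the replicate block to 0.965 with the covariate. The remaining isoforms Cox6a2 (-0.28, adjusted p = 0.378), Cox6b2 (0.45, adjusted p = 0.395), Cox7a1 (0.75, adjusted p = 0.111) and Cox8b (-0.06, adjusted p = 0.828) did not pass. The related gene Cox7a2l did not pass either (-0.30, adjusted p = 0.317).

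In complex V, 7 of 17 members rose, none fell, all 17 differences were positive, and their median was 0.52. Atp5o, the peripheral stalk subunit also called OSCP, had 11.60, 10.46, 11.22, 11.60 and 10.17 in KO neutrophils, against 9.59, 9.28, 8.60 and 9.66 in WT neutrophils. No array of the groups overlapped, and the difference was 1.72 (SE 0.39, 3.30-fold, adjusted p = 0.00289). In the catalytic head, Atp5c1 (gamma) rose by 1.10 (SE 0.30, adjusted p = 0.0101) and Atp5a1 (alpha) by 0.79 (SE 0.25, adjusted p = 0.0251), while Atp5b (beta) differed by 0.30 (SE 0.20, adjusted p = 0.288). Atp5c1 did not pass without WT neutrophil 4 (adjusted p = 0.0816), nor Atp5a1 without any of WT neutrophils 3 and 4 and KO neutrophils 1, 3 and 4 (adjusted p up to 0.127). Both turned negative with the broadly expressed level as a covariate (Atp5c1 -0.19, Atp5a1 -0.11).

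The c ring is encoded by 3 genes that give the same mature protein. Atp5g1 rose by 1.08 (SE 0.31, adjusted p = 0.0143) and Atp5g3 by 1.03 (SE 0.27, adjusted p = 0.00806), while Atp5g2 differed by 0.49 (SE 0.22, adjusted p = 0.119). The Atp5g1 call was lost without WT neutrophil 2 or WT neutrophil 3 (adjusted p up to 0.0763). Without WT neutrophil 4, Atp5g3 was at an adjusted p of 0.0526 and Atp5g2 passed (0.79, adjusted p = 0.00844). Atp5g2 in WT neutrophil 4 was at 10.01, against 8.42 to 9.24 in the other WT neutrophils and 9.12 to 9.84 in KO neutrophils.

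The difference was also set against how bright a member was. The 28 dimmest members (mean level up to 11.78) had a median difference of 0.51, the 28 in the middle 0.70 and the 28 brightest (from 14.56) 0.56. In these sets 10, 12 and 16 members rose.

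**Figure D3:**
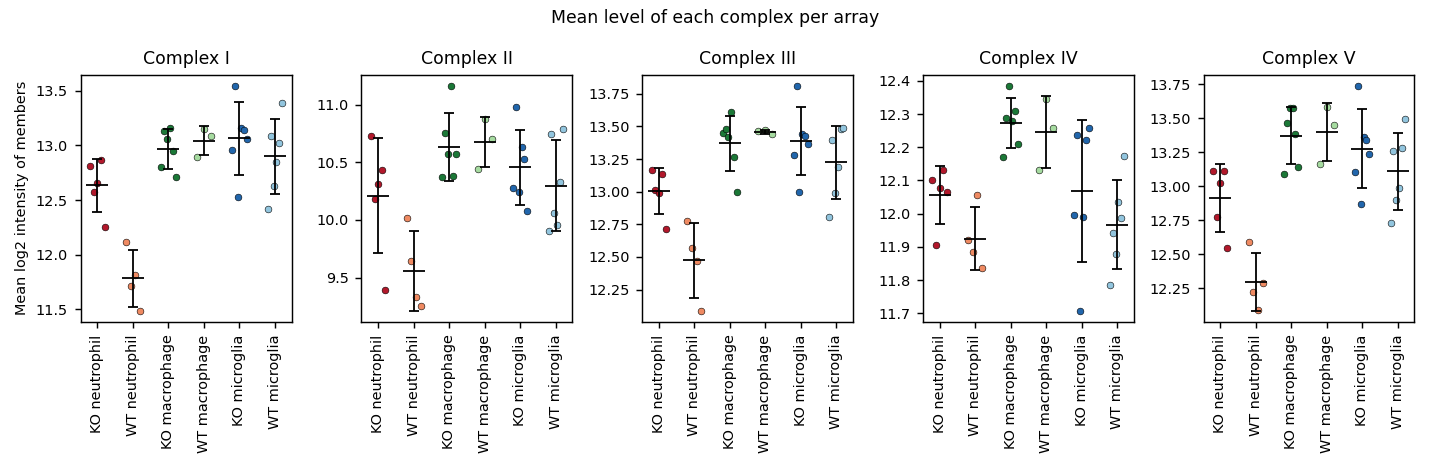
Each point is the mean log2 intensity of the members of a complex on 1 array, with the group mean and SD as bars, for KO and WT arrays of each cell type; the vertical scales differ between panels. KO neutrophil arrays lie above all WT neutrophil arrays in complex I and overlap with them in the other complexes, and macrophages and microglia overlap in all 5 complexes.

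In the other cell types no member was called. In KO against WT macrophages 0 members passed in limma, 0 lay under an unadjusted p of 0.05 (1029 of all rows did), and 0.00452% of all rows were called. The median difference was -0.05, and complex I averaged 12.97 ± 0.18 in KO macrophages and 13.04 ± 0.14 in WT macrophages (SD, n = 6 and 3). The smallest p belonged to Cox4i2, whose levels in KO macrophages had a lowest, median and highest value of 6.72, 7.42 and 8.07, against 6.58, 6.73 and 6.67 in WT macrophages (difference 0.73, SE 0.37, adjusted p = 0.998). Ndufa4 came next, with 14.48 to 14.93 in KO macrophages and 14.29 to 14.33 in WT macrophages, without overlap, at a difference of 0.37 (SE 0.21, adjusted p = 0.998). In 1 member all KO macrophage arrays lay above all WT macrophage arrays, and in 2 members all lay below. Over all 22103 rows, 416 lay wholly above and 230 wholly below.

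In KO against WT microglia 0 members passed in limma, 1 lay under an unadjusted p of 0.05 (646 of all rows did), and 0% of all rows were called. Of the 84 differences 76 were positive, with a median of 0.14 against 0.00 over all rows. Complex I averaged 13.06 ± 0.33 in KO microglia and 12.90 ± 0.35 in WT microglia (SD, n = 6 each), a gap smaller than the spread between arrays. The member with the smallest p was Cox6a2, with a lowest, median and highest level of 9.60, 9.81 and 10.49 in KO microglia and 8.91, 9.38 and 10.27 in WT microglia (difference 0.42, SE 0.19, adjusted p = 1).

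Whether the genotype effect differed from one cell type to another was tested directly. Between neutrophils and macrophages it was called for 13 members in the positive direction and 1 in the negative (4.36% and 2.51% of all rows), with a median of 0.61. Between neutrophils and microglia it was called for 10 members, all positive (4.06% of all rows positive, 1.73% negative), with a median of 0.43. Of the positive calls, 12 of 13 and 8 of 10 were complex I genes.

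Ndufa11 had the highest value against macrophages, 2.15 (SE 0.47, limma adjusted p = 0.00758), followed by Ndufb5 at 2.11 (SE 0.50, adjusted p = 0.012), Ndufv1 at 2.06 (SE 0.53, adjusted p = 0.0197) and Ndufa9, a subunit beside the quinone site, at 1.79 (SE 0.43, adjusted p = 0.0127). Against microglia, Ndufc2 led with 1.66 (SE 0.26, adjusted p = 0.000457), followed by Ndufb5 at 1.57 (SE 0.45, adjusted p = 0.0357), Ndufa9 at 1.52 (SE 0.39, adjusted p = 0.0175) and Ndufb2 at 1.49 (SE 0.43, adjusted p = 0.0351). The negative call against macrophages was Cox4i2 at -1.68 (SE 0.50, adjusted p = 0.041), which was lost on leaving out any of 12 single arrays, with an adjusted p of up to 0.0912. Against macrophages Ndufv1 did not pass without WT macrophage 3 (adjusted p = 0.0561). Against microglia Ndufb5 and Ndufb2 were each lost on leaving out any of 9 single arrays (adjusted p up to 0.0746 and 0.0977), and Ndufa9 without WT neutrophil 3 (adjusted p = 0.0524). Without WT neutrophil 4, Ndufb5 was at 1.51 against macrophages (adjusted p = 0.0113) and at 0.97 against microglia (adjusted p = 0.0725).

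These counts moved with single arrays. Against macrophages 22 members were called without WT neutrophil 1, 27 without KO neutrophil 5, and 9 without KO neutrophil 1, WT macrophage 2 or WT macrophage 3. Against microglia 21 were called without WT neutrophil 1 and 19 without KO neutrophil 5, and 6 without any of WT neutrophil 4, KO neutrophils 1, 3 and 4, WT microglia 2, 5 and 6, and KO microglia 1 and 3. After quantile normalization over all arrays 7 members were called positive and 1 negative against microglia. The positive calls made up 15.5% of the members against macrophages and 11.9% against microglia. The same 1960 broadly expressed rows were called positive more often, in 17.2% against macrophages and 17.5% against microglia. Between macrophages and microglia 0 members differed in the change with genotype in limma, 0 at an unadjusted p under 0.05 (761 of all rows), and 0% of all rows were called.

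**Figure D4:**
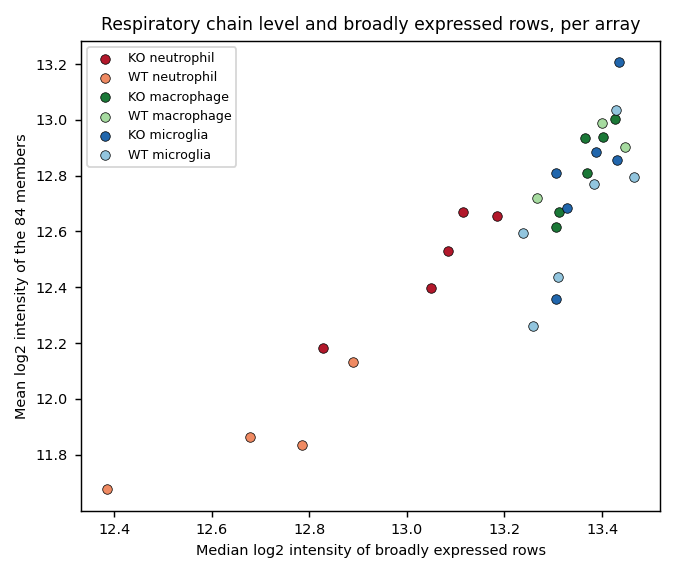
Each point is 1 array, placed by the median log2 intensity of the 1960 broadly expressed rows (horizontal axis) and the mean log2 intensity of the 84 members (vertical axis), coloured by group. The 4 WT neutrophil arrays (members at 11.68 to 12.13) lie at the lower left beside KO neutrophil 5, the other KO neutrophils lie between them and the remaining cells, and macrophages and microglia lie from 13.24 to 13.47 on the horizontal axis.

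How do the cell types compare without the knockout? In WT neutrophils 55 of 84 members were lower and 3 higher than in WT macrophages (limma, 22% of all rows lower and 29.6% higher), with a median of -0.92 over the members and 0.17 over all rows. Relative to WT microglia 54 were lower and 2 higher (32.3% of all rows lower and 22% higher), with medians of -0.67 and -0.06. Of the broadly expressed rows, 58.6% were lower in WT neutrophils than in WT macrophages and 61.7% lower than in WT microglia, with a median of -0.80 in each case. Those rows were picked for high levels in macrophages and microglia with no condition on neutrophils, so the choice itself favours a lower level in neutrophils, and these shares are a description. With their level as a covariate, 2 members were called against WT macrophages (both lower) and 11 against WT microglia (7 higher, 4 lower). After quantile normalization over all arrays, the split against WT microglia was 42 lower and 7 higher.

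By complex, 31 of 37 complex I members, 3 of 4 in complex II, 5 of 8 in complex III, 7 of 18 in complex IV and 9 of 17 in complex V were lower in WT neutrophils than in WT macrophages. Against WT microglia the counts were 28, 3, 6, 6 and 11. The mean level of complex I was 11.78 ± 0.26 in WT neutrophils and 13.04 ± 0.14 in WT macrophages, and 12.90 ± 0.35 in WT microglia (SD, n = 4, 3 and 6).

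Atp5o had 9.59, 9.28, 8.60 and 9.66 in WT neutrophils, against 11.79, 12.32 and 12.34 in WT macrophages, a difference of -2.87 (SE 0.45, limma adjusted p = 7.8e-06). Ndufv1 had 9.98, 8.65, 8.00 and 8.22 in WT neutrophils, against 11.17, 11.53 and 11.59 in WT macrophages (-2.72, SE 0.42, adjusted p = 5.86e-06). In both genes all WT neutrophil arrays lay below all WT macrophage arrays. Ndufa11 differed by -2.67 (SE 0.36, adjusted p = 1.05e-06). Against WT microglia, whose lowest, median and highest levels of Ndufc2 were 15.56, 15.77 and 16.02, WT neutrophils had 14.08, 13.46, 13.50 and 12.90 (-2.33, SE 0.19, adjusted p = 1.52e-11). The groups did not overlap. Also low were Ndufa9 (-2.61, SE 0.28, adjusted p = 5.63e-09), Ndufv1 (-2.49, SE 0.35, adjusted p = 7.09e-07) and Uqcrc1 (-2.42, SE 0.36, adjusted p = 1.56e-06).

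Among core subunits of the other complexes, Sdha differed by -1.69 against WT macrophages (adjusted p = 0.0051) and -1.33 against WT microglia (adjusted p = 0.00725), and Uqcrfs1 by -1.85 (adjusted p = 1.79e-05) and -0.72 (adjusted p = 0.0198). Atp5a1 differed by -1.5 (adjusted p = 9.34e-05) and -1.51 (adjusted p = 4.23e-06), and Cox4i1 by -0.87 (adjusted p = 0.000229) and -0.50 (adjusted p = 0.00584). The catalytic beta subunit Atp5b differed by less, -0.48 (adjusted p = 0.0741) and -0.59 (adjusted p = 0.0104). Against WT microglia, Sdha did not pass without WT neutrophil 4 (limma adjusted p = 0.0665), nor Atp5b without WT neutrophil 2 (adjusted p = 0.0837). Uqcrfs1 was lost there without WT neutrophil 3 or WT neutrophil 4 (adjusted p up to 0.0969). With the broadly expressed level as a covariate, Sdha, Uqcrc1, Atp5a1 and Cox4i1 turned positive in both comparisons (Sdha at 1.54 and 1.78), and Uqcrfs1 did so against WT microglia (0.92). Not every member was low in WT neutrophils: Cox5b (-0.36 and -0.02), Cox8a (-0.28 and 0.26), Cox7a2 (-0.30 and -0.13) and Ndufs1 (0.16 and -0.19) did not pass against WT macrophages or WT microglia.

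The same comparisons were made among KO cells. In KO neutrophils 17 members were lower and 2 higher than in KO macrophages (15.8% and 15.9% of all rows), with a median of -0.33, and without KO neutrophil 2 the counts were 11 and 1. Against KO microglia 25 were lower and 4 higher (32% and 13% of all rows), with a median of -0.32. Scaling mattered here: arrays had median intensities of 89.3 to 97.9 in KO neutrophils and 110 to 116 in KO microglia, and after centring arrays on their median 9 members were lower and 11 higher than in KO microglia, and after quantile normalization over all arrays 14 and 6. Against KO macrophages, quantile normalization gave 11 lower and 3 higher. With the broadly expressed level as a covariate the balance turned: 3 members were lower and 12 higher than in KO microglia (median 0.12), and 3 lower and 4 higher than in KO macrophages (median 0.18).

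Ndufv1 in KO neutrophils lay at 10.12 to 10.25, against 10.27, 11.58 and 12.08 (lowest, median and highest) in KO microglia, a difference of -1.28 (SE 0.33, adjusted p = 0.00217). All KO neutrophil arrays lay below all KO microglia arrays. Cox7a1, the muscle form of subunit 7a, was higher in KO neutrophils than in KO microglia by 1.06 (SE 0.30, adjusted p = 0.00516), with 9.53 to 11.01 in KO neutrophils and 8.39 to 9.89 in KO microglia.

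**Figure D5:**
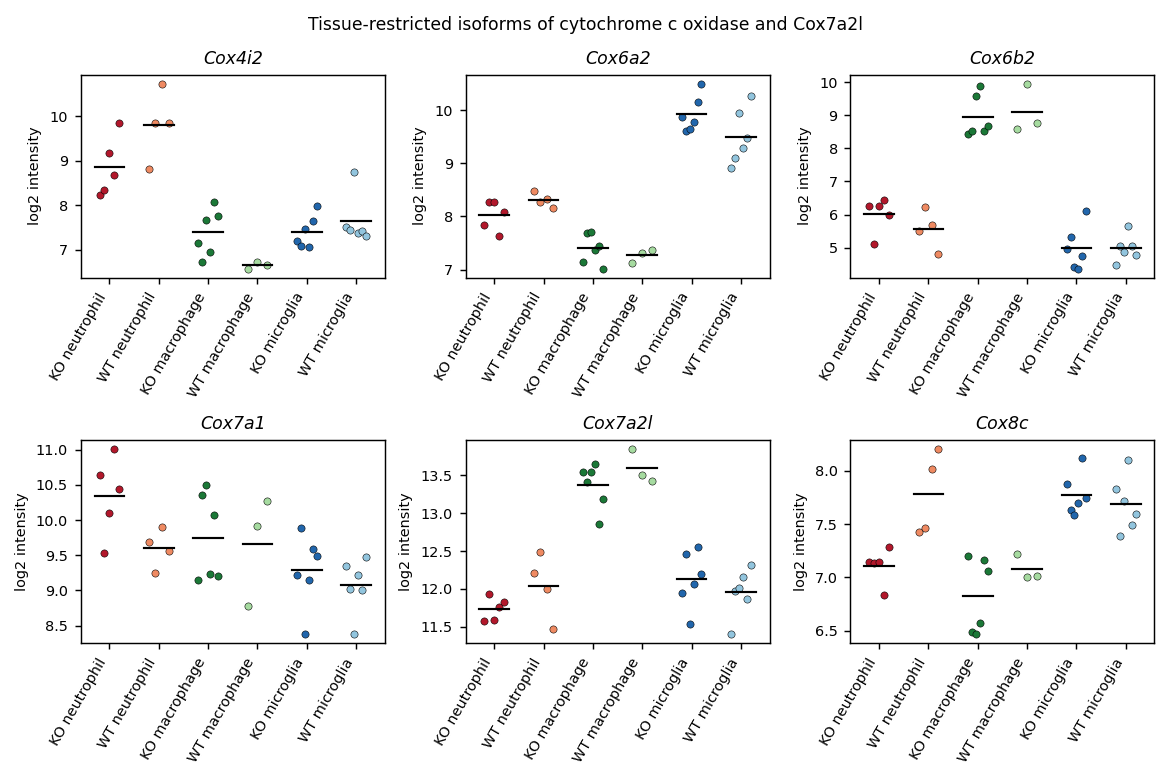
Each panel shows 1 complex IV gene, with a point per array (log2 intensity) and a line at the group mean, KO left of WT in each cell type; the vertical scales differ between panels. Cox4i2 is highest in neutrophils, Cox6a2 in microglia, Cox6b2 and Cox7a2l in macrophages, and Cox8c is higher in all 4 WT neutrophil arrays than in the 5 KO neutrophil arrays.

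Isoforms of complex IV differed between cell types in different directions. Cox4i2 was higher in WT neutrophils than in WT macrophages by 3.14 (SE 0.39, limma adjusted p = 2.88e-07) and than in WT microglia by 2.16 (SE 0.33, adjusted p = 2.69e-06). Its levels were 8.81, 9.84, 10.73 and 9.84 in WT neutrophils and 6.58, 6.73 and 6.67 in WT macrophages, and in WT microglia the lowest, median and highest were 7.31, 7.44 and 8.75. All WT neutrophil arrays lay above all arrays of both other WT groups, although the highest WT microglia array came within a small distance of WT neutrophil 1. In KO cells the differences were 1.46 against macrophages (SE 0.31, adjusted p = 0.000674) and 1.44 against microglia (SE 0.31, adjusted p = 0.000392). The ubiquitous Cox4i1 went the other way in WT neutrophils.

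Cox6b2, the form of subunit 6b known from testis, was measured above the median row level only in macrophages among the 6 groups. It had 8.44, 8.60 and 9.89 (lowest, median, highest) in KO macrophages and 8.60, 9.95 and 8.78 in WT macrophages. In KO microglia it ranged from 4.37 to 6.11, in WT microglia from 4.49 to 5.65, in KO neutrophils from 5.12 to 6.43 and in WT neutrophils from 4.81 to 6.24, so no array outside macrophages reached the macrophage range. Outside macrophages all arrays lay under the median row level, with no detection calls to tell signal from background there, and the differences that follow depend on that floor. WT macrophages exceeded WT microglia by 4.12 (SE 0.39, adjusted p = 8.17e-10), KO macrophages exceeded KO microglia by 3.95 (SE 0.32, adjusted p = 1.58e-11), and WT neutrophils differed from WT macrophages by -3.54 (SE 0.42, adjusted p = 9.76e-08). The ubiquitous Cox6b1 did not pass between WT macrophages and WT microglia (0.36, SE 0.25, adjusted p = 0.271).

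Cox6a2, the form of subunit 6a known from heart and skeletal muscle, was highest in microglia. Its levels were 9.60 to 10.49 in KO microglia and 8.91 to 10.27 in WT microglia, against 7.64 to 8.28 in KO neutrophils, 8.16 to 8.47 in WT neutrophils, 7.02 to 7.71 in KO macrophages and 7.13 to 7.38 in WT macrophages. No microglia array overlapped any array of the other cell types. WT macrophages differed from WT microglia by -2.23 (SE 0.24, adjusted p = 8.98e-09) and KO macrophages from KO microglia by -2.52 (SE 0.19, adjusted p = 6.17e-12). WT neutrophils lay between, 1.03 above WT macrophages (SE 0.25, adjusted p = 0.00141) and with a difference of -1.20 from WT microglia (SE 0.22, adjusted p = 2.65e-05).

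Cox7a2l was highest in macrophages. KO macrophages had 12.86 to 13.65 and WT macrophages 13.85, 13.50 and 13.43, whereas KO microglia had 11.54 to 12.56 and WT microglia 11.41 to 12.31. The difference between macrophages and microglia was 1.64 in WT (SE 0.22, adjusted p = 8.33e-07) and 1.24 in KO (SE 0.18, adjusted p = 2.03e-06), and neutrophils differed from macrophages by -1.55 in WT (adjusted p = 6.45e-06) and -1.63 in KO (adjusted p = 1.36e-07). Cox8c was lower in macrophages than in microglia, with differences of -0.61 in WT (adjusted p = 0.015) and -0.95 in KO (adjusted p = 1.76e-05). The WT call was lost without WT macrophage 2 or WT macrophage 3 (limma adjusted p up to 0.0581).

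Macrophages and microglia were also compared over all members. In WT macrophages 11 members were higher and 5 lower than in WT microglia (9.62% of all rows higher and 27.9% lower), with a median of 0.21 over the members and -0.25 over all rows. After median centring the counts were 40 higher and 1 lower. In KO macrophages 7 were higher and 8 lower than in KO microglia (11.8% of all rows higher and 31.4% lower), with a median of 0.04 over the members and -0.21 over all rows, and after centring 33 and 2. Ndufa11 was higher in WT macrophages than in WT microglia by 1.34 (SE 0.34, adjusted p = 0.00234) and Uqcrfs1 by 1.12 (SE 0.28, adjusted p = 0.00251), and Ndufa4 was lower, at -0.68 (SE 0.21, adjusted p = 0.0132). Atp5l, subunit g of ATP synthase, was higher in WT neutrophils than in WT microglia by 0.61 (SE 0.23, adjusted p = 0.0292), a call lost on leaving out any of 4 single arrays.

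Genes that build or feed the chain were counted from lists of 103 measured genes, written with earlier results of these data known. Their counts stand beside the 10.7% of all rows and the 38.4% of broadly expressed rows that rose, and nothing particular to a list is read from them. In KO neutrophils relative to WT neutrophils, 3 of 4 further subunits and cytochrome c genes rose, among them Cyc1 (cytochrome c1 of complex III, 1.38, SE 0.21, limma adjusted p = 3.38e-05) and Ndufab1 (the acyl carrier protein of complex I, 0.84, adjusted p = 0.00732). Of assembly factors, 4 of 15 rose for complex I (Ndufaf2 2.04, Ecsit 1.25), 1 of 4 rose and 1 fell for complex II (Sdhaf4 1.48, Sdhaf2 -0.76), 3 of 6 rose for complex III (Uqcc1 2.20, Bcs1l 1.44) and 4 of 18 rose for complex IV (Coa5 1.22, Coa3 0.94). For complex V 0 of 3 passed, with Atpaf1 at 0.55 (adjusted p = 0.0636) and Tmem70 at 0.18 (adjusted p = 0.45).

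In the citrate cycle, which supplies NADH and succinate, 9 of 16 genes rose and none fell, among them Idh2 (mitochondrial isocitrate dehydrogenase) at 2.47 (SE 0.37, adjusted p = 2.91e-05) and Fh1 (fumarase) at 1.29 (SE 0.16, adjusted p = 4.5e-06). Of the genes for coenzyme Q synthesis 3 of 12 rose (Coq3 1.39, Coq5 1.25), and of carriers and pores of the mitochondrial membranes 5 of 9 rose (Vdac3 1.15, Vdac2 0.95). Of 16 regulators of mitochondrial biogenesis 4 rose and 1 fell. Tfb2m, a mitochondrial transcription factor, rose by 1.44 (SE 0.48, adjusted p = 0.0347), and Ppargc1a, the coactivator PGC-1 alpha, fell by 0.89 on the log2 scale (SE 0.21, adjusted p = 0.00414).

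Some markers of other cells moved with the genotype in neutrophils, and others did not. The mean level of 9 measured monocyte and macrophage markers was 12.26 to 13.18 in KO neutrophils and 11.56 to 12.32 in WT neutrophils, against 14.83 to 15.15 in KO macrophages and 14.77 to 15.09 in WT macrophages, and 6 of the 9 rose in KO neutrophils, with none under the median row level. The mean of 11 neutrophil markers was 12.45 to 13.69 in KO neutrophils. It was 13.17, 13.97 and 13.37 in WT neutrophils 1, 3 and 4 and 16.12 in WT neutrophil 2, and 3 of the 11 fell in KO neutrophils. The mean of 9 microglial markers was 8.23 to 9.79 in KO neutrophils and 8.26 to 9.43 in WT neutrophils, and 1 of the 9 fell. The mean of 9 cartilage and connective tissue markers reached 10.71 in WT neutrophil 4, against 7.53 to 8.26 in the other WT neutrophils, and was 6.67 to 7.76 in KO neutrophils, and 5 of the 9 fell. Of astrocyte, neuron and oligodendrocyte markers, 0 of 7, 0 of 7 and 0 of 5 passed. Among endothelial markers 1 of 6 rose, and among lymphocyte markers 1 of 6 fell. Over all rows 10.7% were called higher and 9.14% lower in KO neutrophils. The part of these markers in the rise of respiratory chain genes was not tested.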

How the data were processed

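The 30 Affymetrix Clariom arrays measured 3 sorted myeloid cell types of TREM1 knockout and wild-type mice after stroke, from 0.6 to 0.8 ng of RNA with an integrity number above 7.5, per the labels' protocols. The deposited table holds linear intensities (5.62 to 438297) that the authors normalized by RMA, per the submitters' processing notes; the software version, detection calls and batches are not given in the sources used here, so the number of arrays limits the precision. The deposited intensities were turned into log2 values without a pseudocount. Groups and replicate numbers came from the labels. Rows were named from the platform annotation (19508 rows with 1 symbol, 2595 others unnamed here).

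A model with 6 group means was fitted to all 22103 rows with limma 3.58.1 (lmFit and eBayes, R 4.3.3), leaving 24 residual degrees of freedom, and 12 comparisons were made, each with Benjamini-Hochberg adjustment over all rows and a threshold of 0.05. The scripts were tested on simulated data. The members, the companion and marker lists and the tests were chosen with earlier results of these data known. Named in the text were, among members at or above the median row level, up to 4 with the greatest called differences in each direction (2 between KO cell types, and the 3 with the smallest p where none was called), the core subunits and isoform sets, and the 2 genes of each companion list with the smallest p, with exceptions stated. No arrays held identical values (highest correlation between arrays 0.991). Same-numbered arrays of different groups did not deviate together (correlations -0.202 to 0.261 over 39 pairs, 6 of them over 0.1), so numbers were not treated as pairs. Promoters came from RefSeq (GRCm38.p6).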

Additional observations from a re-analysis of the deposited data

Results flagged for a closer look

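Single arrays stood apart from the other arrays of their group for 17 of 255 gene and group pairs tested among the named members (6.67%), at a level that chance reaches in about 1 in 20 groups. In WT neutrophil 4, Ndufb5 lay at 9.0, with the other WT neutrophils at 11.36 to 11.44, and Ndufa11 at 8.39, with the others at 8.89 to 8.99. In WT neutrophil 3, Ndufs7 lay at 6.73, with the others at 7.13 to 7.16.

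KO neutrophil 5 was the array set apart most often, and it was low in most of these genes. There Ndufs8 lay at 10.16 (others 11.35 to 11.65), Sdhd at 7.98 (others 9.60 to 10.11), Uqcrfs1 at 8.72 (others 9.79 to 10.23), Atp5a1 at 14.82 (others 15.76 to 16.03) and Atp5c1 at 8.41 (others 8.86 to 8.88). Sdhc was high there instead, at 8.96 (others 8.56 to 8.67). In KO neutrophil 3, Cox7a2 was high at 15.81 (others 15.48 to 15.56).

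Among macrophages, Ndufv1 lay at 10.06 in KO macrophage 3 (others 10.83 to 11.18) and Cox6a1 at 14.69 in KO macrophage 1 (others 15.07 to 15.27). In KO microglia 6, Sdha lay at 7.55 (others 9.02 to 9.46) and Uqcrc1 at 11.53 (others 12.45 to 12.98). In WT microglia 3, Cox4i2 was high at 8.75 (others 7.31 to 7.52) and Cox8a low at 14.14 (others 14.43 to 14.59), and in WT microglia 4 Atp5b lay at 16.04 (others 16.57 to 16.73).

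The change with genotype differed between cell types by the limma test of that difference for these named members. Between neutrophils and macrophages the differences on the log2 scale were 2.15 for Ndufa11, 2.11 for Ndufb5, 2.06 for Ndufv1, 1.79 for Ndufa9, 1.78 for Ndufb2, 1.64 for Ndufc2 and 1.21 for Ndufs3, and -1.68 for Cox4i2. Between neutrophils and microglia they were 1.66 for Ndufc2, 1.57 for Ndufb5, 1.52 for Ndufa9, 1.49 for Ndufb2, 1.45 for Ndufa11 and 0.98 for Ndufs3. The neutrophil arrays are shared by both sets of values, so these are not separate lines of evidence.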

How the results depend on the processing

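The counts of 0 called members in KO against WT macrophages, in KO against WT microglia and in the change with genotype of macrophages against microglia were 0 under all 11 other settings and on leaving out each array. With only the compared arrays in the fit, 19 members were called in KO against WT neutrophils, and 4 in the change with genotype of neutrophils against microglia. Without WT neutrophils 3 and 4, a setting chosen after seeing the data, 17 were called in KO against WT neutrophils (16 of them also called with all arrays), 6 in the change of neutrophils against macrophages and 2 against microglia. With the level of the broadly expressed rows as a covariate the counts were 1 in KO against WT neutrophils, 2 in WT neutrophils against macrophages, 11 in WT neutrophils against microglia, 7 in KO neutrophils against macrophages (4 higher, 3 lower), 15 in KO neutrophils against microglia (12 higher, 3 lower), and 0 and 1 in the change of neutrophils against macrophages and against microglia. With arrays centred on their median, 41 were called in WT macrophages against microglia and 35 in KO macrophages against microglia. With the replicate block, 5 were called in the change of neutrophils against macrophages and 3 against microglia, and no other count of calls moved by over 1.5 times; since the numbers are not shown to pair arrays, this is no measure of a weaker effect. The cause was not tested.

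Leaving out single arrays gave 30 to 48 called members in KO against WT neutrophils, 51 to 62 and 50 to 58 in WT neutrophils against macrophages and microglia, 11 to 18 in WT macrophages against microglia, 12 to 22 and 21 to 34 in KO neutrophils against macrophages and microglia, 10 to 17 in KO macrophages against microglia, and 9 to 27 and 6 to 21 in the change of neutrophils against macrophages and microglia. Without WT macrophage 1, Atp5g1 in WT neutrophils against macrophages was -1.78, against -1.19 with it.

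With the covariate, signs turned in KO against WT neutrophils for Uqcrc1 (-0.15), Atp5a1 (-0.11) and Atp5c1 (-0.19). They turned in WT neutrophils against macrophages for Cox8c (-0.37), Ndufv2 (0.19), Sdha (1.54), Sdhb (0.043), Sdhd (1.27), Uqcrc1 (0.58), Cox4i1 (0.055), Cox5a (0.11), Atp5a1 (0.18), Atp5c1 (0.75), Atp5g1 (0.12) and Ndufa4 (0.17). They turned in WT neutrophils against microglia for Cox8c (-0.94), Uqcrc1 (0.65), Ndufs7 (0.52), Ndufv2 (0.26), Sdha (1.78), Sdhb (0.44), Sdhd (2.08), Uqcrfs1 (0.92), Cox4i1 (0.39), Cox5a (0.34), Cox6c (0.20), Atp5a1 (0.10), Atp5c1 (1.16) and Atp5g3 (0.12). Quantile normalization over all arrays turned Sdhc in that comparison (0.10).

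Of 192 values of named members, 185 kept direction and call with array weights, 192 with 1 row per gene and 191 with a variance trend. Taking the dimmest row per gene gave no other value, since each member has 1 row. With 3 or 4 WT arrays in a group and no detection calls, differences in dim members such as Cox7b2 and Ndufa4l2 have little signal over background behind them. The covariate differs between the neutrophil groups, and what sets its level was not tested.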
